A study of Mus musculus with 16 samples.

Results

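Kupffer cells are the resident macrophages of the liver, and the genes described here are 10 that mark them: Vsig4, Fcna, Folr2, C1qa, C1qb, C1qc, Cd163, Cd5l, Marco and Csf1r. They were taken by gene symbol from a table of bead intensities of mouse liver RNA, in which 9 of the 10 had an annotated probe and 8 could be tested, among 7302 genes tested in all. Csf1r, which encodes the receptor for colony stimulating factor 1, had no annotated probe and was not analysed here. The RNA came from whole livers of male FVB/NJ mice at 4 weeks of age. The Trim28MommeD9/+ mice carry 1 copy of an allele of Trim28, the corepressor also called Kap1, that was induced with the mutagen ENU and is present in every cell, and they were compared with Trim28+/+ littermates. The line in which the screen was made carries a GFP transgene, so both genotypes share it. The labels assign 7 arrays to Trim28MommeD9/+ and 9 to Trim28+/+. The methods give 4 mice of each genotype and technical replicates of every sample, which would make equal numbers of arrays and does not match the 7 and 9 of the labels. No source used here says which arrays share a mouse, so arrays are the unit and p-values are too small where arrays share one.

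Kupffer cells line the sinusoids, where they take up bacteria, particles, aged red cells and complexes of hemoglobin from portal blood. They are seeded before birth and depend on signals through the CSF1 receptor. Among the products that mark them are a complement receptor (Vsig4), the 3 chains of C1q (C1qa, C1qb, C1qc), which starts the classical complement pathway, a ficolin (Fcna), which starts the lectin pathway, a folate receptor (Folr2), scavenger receptors (Cd163, Marco) and a secreted inhibitor of apoptosis of macrophages (Cd5l). Whole liver RNA is mostly from hepatocytes, so in these data a change in the number of Kupffer cells and a change in RNA per cell cannot be told apart.

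C1qa, C1qc and C1qb lie next to each other on chromosome 4, with no other annotated gene starting between them. Promoter windows of RefSeq (GRCm38.p6) were matched to 8 of the 10 genes, and those of C1qb, C1qc, Fcna, Folr2 and Vsig4, which were higher in Trim28MommeD9/+, and of Cd163, which was lower, are shown as the 250 bases before the start, 5′ to 3′. Capitals mark the letters GAGGAA or AGGAAGT on either strand, a core of the sites bound by the macrophage factor PU.1 without and with its flank. The 2 motifs overlap where GAGGAA is followed by GT.

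C1qb (chr4:136886201-136886450, minus strand): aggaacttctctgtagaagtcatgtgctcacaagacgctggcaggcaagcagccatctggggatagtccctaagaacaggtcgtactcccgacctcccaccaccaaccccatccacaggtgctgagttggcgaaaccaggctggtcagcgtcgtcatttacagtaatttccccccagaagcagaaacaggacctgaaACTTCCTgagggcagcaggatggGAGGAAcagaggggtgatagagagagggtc

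C1qc (chr4:136892915-136893164, minus strand): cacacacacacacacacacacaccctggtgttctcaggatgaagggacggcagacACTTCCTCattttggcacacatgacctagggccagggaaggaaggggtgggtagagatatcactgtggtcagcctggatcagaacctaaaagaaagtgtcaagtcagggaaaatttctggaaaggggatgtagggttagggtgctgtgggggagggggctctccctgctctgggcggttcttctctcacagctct

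Fcna (chr2:25627975-25628224, minus strand): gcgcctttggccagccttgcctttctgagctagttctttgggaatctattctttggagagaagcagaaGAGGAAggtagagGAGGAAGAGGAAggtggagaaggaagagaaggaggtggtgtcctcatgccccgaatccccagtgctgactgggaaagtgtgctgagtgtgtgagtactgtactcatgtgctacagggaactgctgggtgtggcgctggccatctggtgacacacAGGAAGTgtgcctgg

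Folr2 (chr7:101857191-101857440, minus strand): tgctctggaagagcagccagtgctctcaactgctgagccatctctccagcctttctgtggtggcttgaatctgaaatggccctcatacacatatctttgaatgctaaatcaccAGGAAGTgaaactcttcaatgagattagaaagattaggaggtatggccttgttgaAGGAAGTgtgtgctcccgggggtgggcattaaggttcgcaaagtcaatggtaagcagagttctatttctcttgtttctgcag

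Vsig4 (chrX:96293439-96293688, minus strand): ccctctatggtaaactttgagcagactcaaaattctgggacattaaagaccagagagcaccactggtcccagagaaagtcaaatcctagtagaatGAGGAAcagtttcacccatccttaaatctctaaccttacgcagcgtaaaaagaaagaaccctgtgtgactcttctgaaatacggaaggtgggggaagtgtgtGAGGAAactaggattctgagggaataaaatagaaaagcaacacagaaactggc

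Cd163 (chr6:124304401-124304650, plus strand): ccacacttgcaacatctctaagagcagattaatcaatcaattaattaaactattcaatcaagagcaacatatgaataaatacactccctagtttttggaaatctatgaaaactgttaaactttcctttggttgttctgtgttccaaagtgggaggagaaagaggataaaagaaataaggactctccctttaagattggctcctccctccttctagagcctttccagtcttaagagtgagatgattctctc

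GAGGAA was in 6 of the 9 windows of the genes matched (Folr2 has 2 annotated starts, of which the upstream one is shown) and in 23.3% of all 32851 windows of the same length. The 6 were those of C1qb, C1qc, Fcna and Vsig4, and of Marco, which was not called, and Cd5l, which was not detected. AGGAAGT was in 4 of the 9 windows, those of C1qb, C1qc, Fcna and Folr2, and in 7.69% of all. The Cd163 window and the downstream Folr2 window held neither. An AP-1 motif, TGACTCA, was in 1 of the 9 windows, the downstream start of Folr2, and in 4.46% of all, and the E-box CACGTG was in 0 of the 9 and in 6.02% of all. These matches describe letters in a window and not bound sites.

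All levels below are log2 intensities after background correction and quantile normalization, and a difference is Trim28MommeD9/+ minus Trim28+/+ on that scale. A probe was called detected on an array where its detection p-value against the negative controls was under 0.01, and a gene was called higher or lower at an adjusted p under 0.05 in limma. Trim28 itself was 8.62 ± 0.07 (SD, n = 7 arrays) in Trim28MommeD9/+ and 9.06 ± 0.23 (SD, n = 9 arrays) in Trim28+/+, a difference of -0.44 (SE 0.09, limma adjusted p = 0.00277). The constant that the authors subtracted from each array splits the arrays into 8 from 37.6 to 42.7, which are the 7 Trim28MommeD9/+ arrays and Trim28+/+ replicate 1, and 8 from 48.8 to 56.2, which are the other Trim28+/+ arrays. Background and genotype are therefore separated by Trim28+/+ replicate 1 alone. That array had 10262 probes detected, against at most 9630 on any other array. Of the 8 genes, 6 passed the test as higher in Trim28MommeD9/+ and 1 as lower, beside 10.4% of all genes tested higher and 11.4% lower. The median difference of the 8 was 0.41, beside 0.048 over all genes tested. The genes were chosen with earlier results of these data known, including the values of Fcna and Vsig4.

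Vsig4, a receptor for fragments of complement C3 on Kupffer cells, ranged from 9.45 to 9.81 with a median of 9.54 on the Trim28MommeD9/+ arrays. On the Trim28+/+ arrays it ranged from 8.92 to 9.37 with a median of 9.29. Every Trim28MommeD9/+ array was above every Trim28+/+ array, a separation shown upward by 1.29% of all genes tested. The difference was 0.44 (SE 0.08, limma adjusted p = 0.00213), which is 1.36-fold. The Trim28+/+ arrays lay from 8.92 to 9.02 (replicates 2, 3, 4 and 7) and from 9.29 to 9.37 (the other 5, among them replicate 1 with 9.36).

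Folr2, a folate receptor of tissue macrophages, was detected on all 7 Trim28MommeD9/+ arrays and on 8 of 9 Trim28+/+ arrays. It ranged from 5.77 to 6.26 with a median of 6.10 in Trim28MommeD9/+, and from 5.15 to 5.97 with a median of 5.39 in Trim28+/+. Of the 7 Trim28MommeD9/+ arrays, 5 were above every Trim28+/+ array, and the overlap came from Trim28+/+ replicates 6 and 9, with 5.97 and 5.91, while the other Trim28+/+ arrays were at or below 5.47. The difference of 0.58 (SE 0.11, limma adjusted p = 0.00242) was the largest rise among the 8 genes.

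Fcna, the plasma ficolin A of the mouse, ranged from 10.11 to 10.48 with a median of 10.27 in Trim28MommeD9/+ and from 9.38 to 10.17 with a median of 9.69 in Trim28+/+. The highest Trim28+/+ arrays were again replicates 6 and 9, with 10.17 and 10.09, and 5 of 7 Trim28MommeD9/+ arrays exceeded both. Replicates 6 and 9 were paired by the correlation of their deviations over all genes tested (r 0.78), and may share a mouse. Fcna rose by 0.51 (SE 0.10, limma adjusted p = 0.00242), or 1.43-fold.

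The 3 chains of C1q, which assemble into 1 protein, all passed the test as higher. C1qc ranged from 8.45 to 8.87 (median 8.67) in Trim28MommeD9/+ and from 7.83 to 8.47 (median 8.15) in Trim28+/+, with 6 of 7 Trim28MommeD9/+ arrays above every Trim28+/+ array and a difference of 0.47 (SE 0.09, limma adjusted p = 0.00242). C1qa ranged from 6.66 to 7.06 (median 6.84) in Trim28MommeD9/+ and from 6.44 to 6.71 (median 6.62) in Trim28+/+, with 5 of 7 above every Trim28+/+ array. Its difference of 0.24 (SE 0.07, limma adjusted p = 0.0145) was the smallest of the genes called higher.

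C1qb ranged from 8.25 to 8.47 (median 8.35) in Trim28MommeD9/+ and from 7.34 to 8.39 (median 7.99) in Trim28+/+. Only 2 of 7 Trim28MommeD9/+ arrays were above every Trim28+/+ array, and the SD was 0.07 among the former and 0.32 among the latter, with Trim28+/+ replicate 7 the lowest at 7.34. The difference was 0.39 (SE 0.11, limma adjusted p = 0.0234), and without Trim28MommeD9/+ replicate 6 its adjusted p was 0.0509. C1qa and C1qb also missed the threshold with presumptive technical pairs (7 pairs of arrays of a genotype, chosen by the correlation of their deviations) as a random block (limma adjusted p = 0.101 and 0.134), a fit in which Vsig4, Fcna, Folr2, C1qc and Cd163 passed, beside 2.41% of all genes called higher and 4.26% lower. The same 4 higher genes and Cd163 passed with the authors' values (4.98% of all genes higher, 14.2% lower) and with replicate number as a block (2.22% higher, 5.19% lower). In the fit of the authors' values, those under 16 were set to 16. Before this step Cd163 averaged 7.33 in Trim28MommeD9/+ and 24.1 in Trim28+/+. Its difference in that fit therefore depends on this floor. Over probes detected on all 16 arrays, where Folr2, Cd163 and Marco left the test, all 5 remaining genes were higher, beside 11.4% of all genes higher and 10.6% lower.

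**Figure D1:**
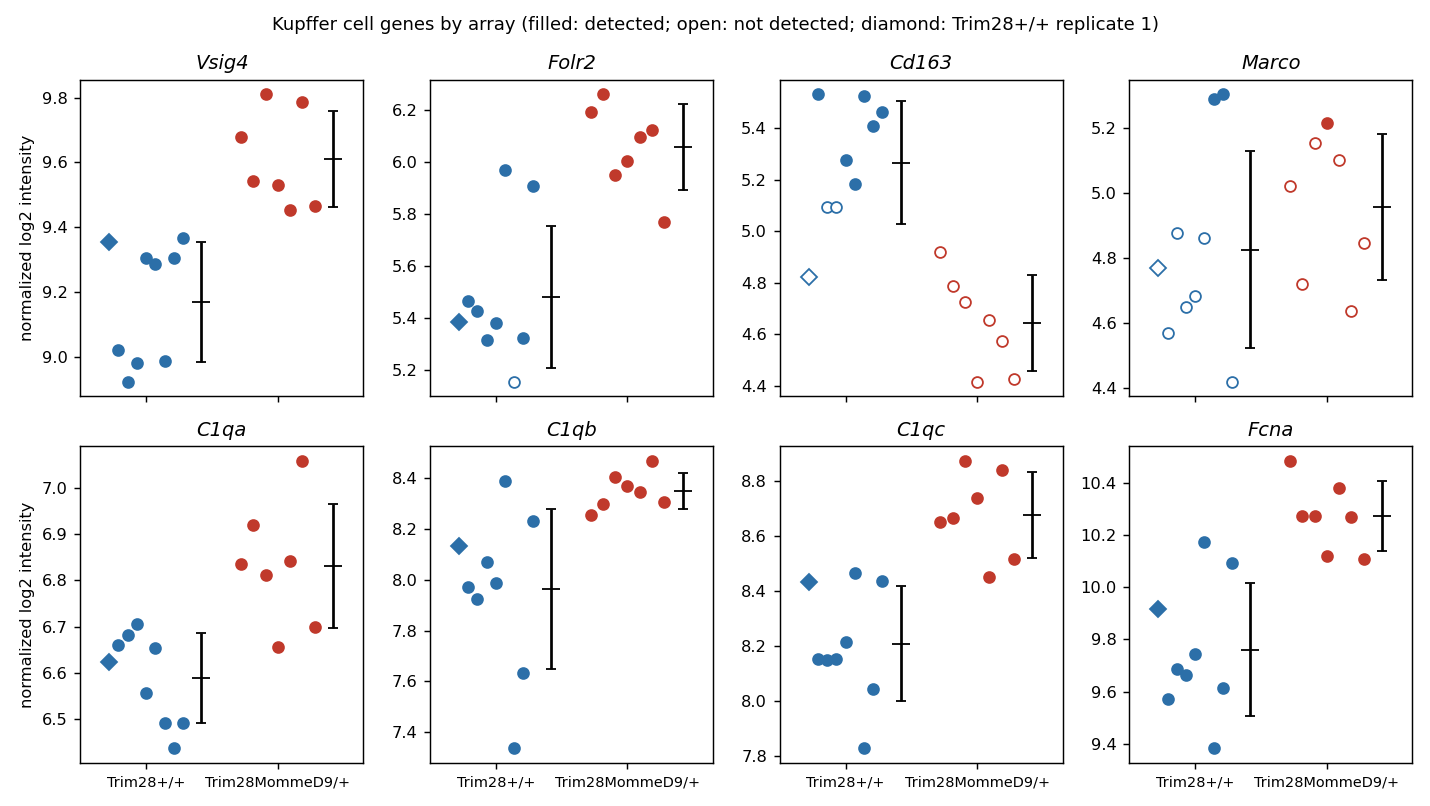
Normalized log2 intensity (y axis) of the 8 tested genes on each array, by genotype, with the mean and SD of the genotype as a bar beside the points; filled points are arrays on which the probe was detected, open points are arrays on which it was not, and the diamond is Trim28+/+ replicate 1. Vsig4 separates the genotypes completely, C1qb only in part, and Cd163 is open on all 7 Trim28MommeD9/+ arrays.

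Cd163, the scavenger receptor for complexes of haptoglobin and hemoglobin, went the other way. On the Trim28MommeD9/+ arrays it was 4.92, 4.79, 4.73, 4.42, 4.66, 4.57 and 4.43 (replicates 1 to 7), and its probe was detected on 0 of these arrays. On the Trim28+/+ arrays it was 4.82, 5.53, 5.09, 5.10, 5.28, 5.18, 5.52, 5.41 and 5.46 (replicates 1 to 9), with detection on 6 of 9. Of the Trim28MommeD9/+ arrays, 6 were below every Trim28+/+ array, and the overlap came from Trim28+/+ replicate 1, which at 4.82 lay within the Trim28MommeD9/+ range. The measured means, 4.64 ± 0.19 (SD, n = 7) and 5.27 ± 0.24 (SD, n = 9), differed by -0.62 (SE 0.11, limma adjusted p = 0.00145), for a probe that passed the filter on dim probes only through the Trim28+/+ arrays, where it was higher. Since the probe was not above background in Trim28MommeD9/+, only a bound on its fold can be given. The mean of the Trim28+/+ arrays was 5.27, and the mean of the lowest detected signal of each Trim28MommeD9/+ array was 5.19, a ratio of 1.06-fold. That gap is smaller than the SD of 0.24 among the Trim28+/+ arrays, so the bound does not by itself establish a fall. A second Cd163 probe was detected on 0 arrays and differed by 0.0055 (limma adjusted p = 0.966 over all probes).

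Marco, a scavenger receptor for bacteria and particles, was detected on 1 of 7 Trim28MommeD9/+ arrays and 2 of 9 Trim28+/+ arrays. It ranged from 4.64 to 5.22 (median 5.02) in the former and from 4.42 to 5.30 (median 4.77) in the latter, and did not pass the test (difference 0.13, SE 0.13, limma adjusted p = 0.485, 95% interval from -0.14 to 0.40). The single probe of Cd5l was detected on 0 of 16 arrays and was not tested, so 2 of the 10 genes, Cd5l and Csf1r, were not measured here.

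With the 2 background sets as a block, in which each value is the mean of the Trim28MommeD9/+ arrays against Trim28+/+ replicate 1, 0 of the 8 genes passed the test, beside 0.0274% of all genes called higher and 0.0137% lower. The differences were 0.67 for Folr2, 0.35 for Fcna, 0.26 for Vsig4, 0.25 for C1qc, 0.22 for C1qb, 0.21 for C1qa, 0.19 for Marco and -0.18 for Cd163, with standard errors from 0.14 to 0.28 and limma adjusted p from 0.558 to 0.94. The signs were those of the fit on genotype alone for each of the 8. Folr2 was no smaller than on genotype alone, whereas C1qb (SE 0.24), Marco (SE 0.28) and Cd163 (SE 0.20) lay within 1 SE of 0. Cd163 was detected on 0 of the 8 arrays of the low background set and on 6 of the 8 of the high set, and the part of background in its difference was not tested. With median scaling over all probes in place of quantile normalization, the median of all genes was -0.19. Relative to it the 6 genes were higher by 0.17 (C1qa) to 0.54 (Folr2) and Cd163 lower by 0.51, and Folr2 and Cd163 were the genes that passed the test, beside 0.479% of all genes called higher and 34.6% lower.

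**Figure D2:**
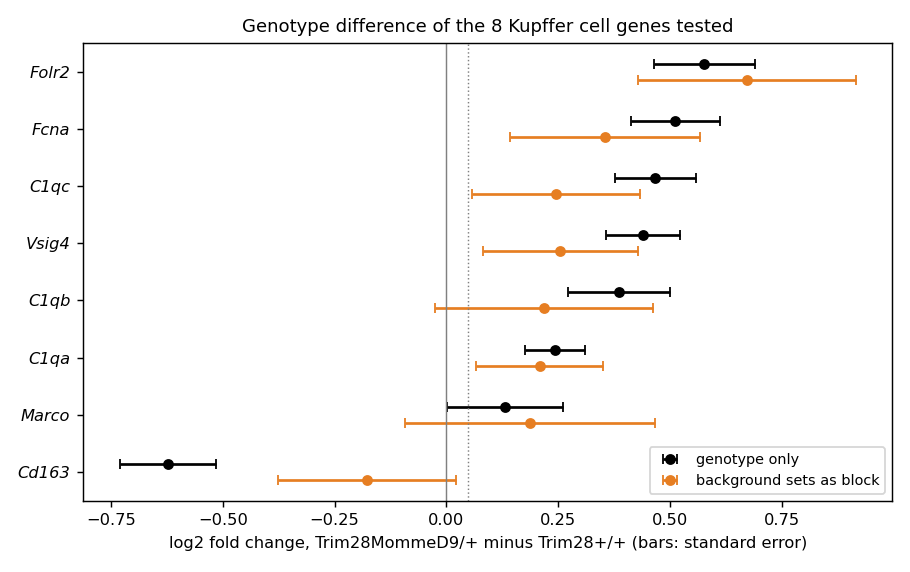
Log2 fold change (x axis, Trim28MommeD9/+ minus Trim28+/+, with standard errors) of the 8 tested genes with genotype alone (black) and with the 2 background sets as a block (orange); the dotted line is the median of all genes, 0.048. Cd163 moves from -0.62 to -0.18, and Folr2 from 0.58 to 0.67.

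Across arrays of 1 genotype, the genes that were higher in Trim28MommeD9/+ moved together in part. After each gene was centred on the mean of its genotype, the 15 pairs of these 6 genes had a median Pearson r of 0.57 (from -0.02 to 0.85, 16 arrays), and all 28 pairs of the 8 genes had a median of 0.21, beside 0.0025 (quartiles -0.27 and 0.28) over all pairs of genes tested. These correlations are given without p, since arrays can share a mouse and were normalized together. The median over the 15 pairs was 0.39 within Trim28MommeD9/+ and 0.64 within Trim28+/+, and 0.57 when the presumptive technical pairs were averaged first.

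Fcna and Folr2 had the highest r, 0.85, followed by C1qb and C1qc, the neighboring C1q chains, with 0.84, and by Fcna and C1qb with 0.76. C1qa was set apart from the other C1q chains, with r of 0.39 to C1qb and 0.29 to C1qc, and had r of -0.02 to Vsig4. Against the mean of the other 7 genes, r was 0.83 for Fcna, 0.78 for Folr2, 0.67 for C1qc, 0.58 for Vsig4, 0.48 for C1qb and 0.11 for C1qa. The mean of the 6 genes lay farthest from that of its genotype on Trim28+/+ replicates 6 and 9, by 0.29 and 0.23, and on Trim28+/+ replicate 7, by -0.33. Replicates 6 and 9 were a presumptive technical pair and may share a mouse. Among Trim28MommeD9/+ arrays the same deviation ran from -0.15 to 0.12. The median r over all 28 pairs was 0.14 without Trim28MommeD9/+ replicate 7, and 0.17 to 0.25 without any other single array. Fcna with C1qc had r of 0.95 in Trim28+/+ and -0.10 in Trim28MommeD9/+, a difference that was not tested.

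Marco had r of -0.53 to the mean of the others and -0.64 to C1qb, with its probe detected on 3 of 16 arrays. Without Trim28+/+ replicates 7 and 8, on which Marco was highest, r to the mean was -0.22.

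**Figure D3:**
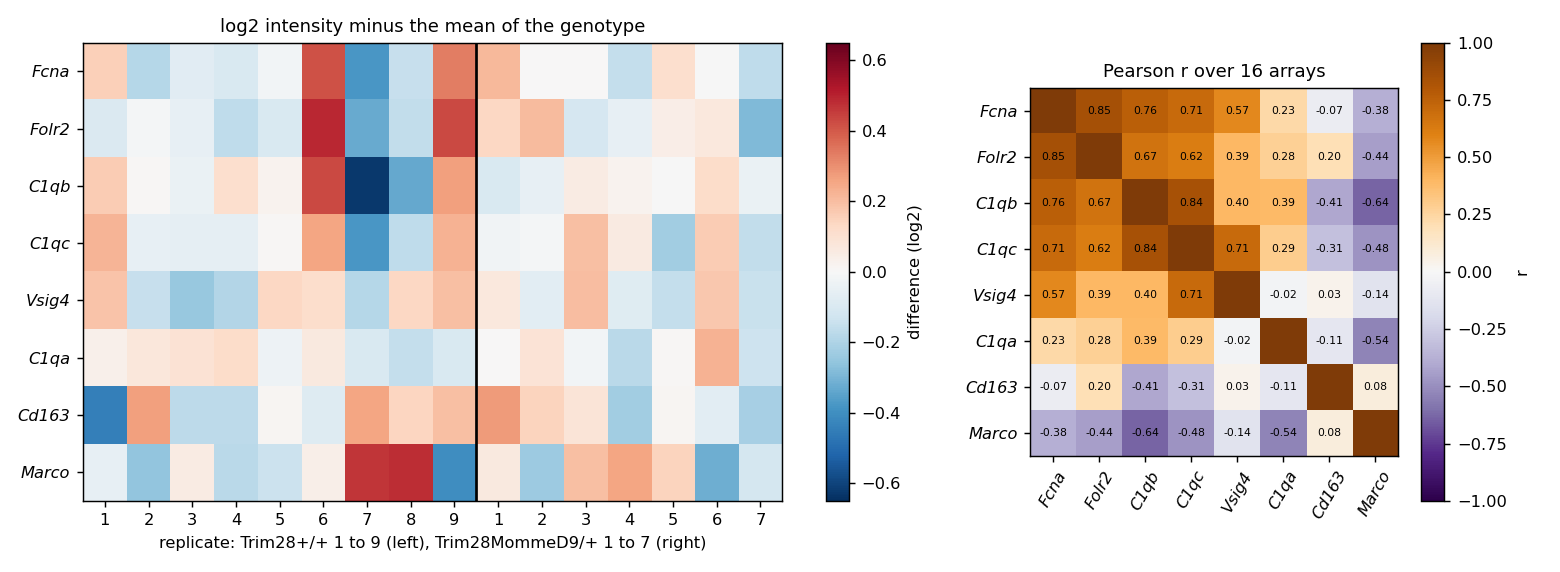
Left, difference (color, log2) of each of the 8 tested genes (rows) on each of 16 arrays (columns) from the mean of its genotype; right, Pearson r for each pair of genes over the 16 arrays. Trim28+/+ replicates 6 and 9 are high and replicate 7 low for Fcna, Folr2, C1qb and C1qc, and r is 0.85 for Fcna with Folr2 and 0.84 for C1qb with C1qc.

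Cd163 did not follow the other genes. Its r to their mean was -0.14 and rho -0.07 over 16 arrays after centring, 0.60 within the 7 Trim28MommeD9/+ arrays and -0.37 within the 9 Trim28+/+ arrays. Leaving out the 2 arrays whose Cd163 level was farthest from its median (Trim28MommeD9/+ replicates 4 and 7) gave -0.34, and leaving out Trim28+/+ replicate 7 gave 0.049, so the sign rests on single arrays. Its r to single genes ran from -0.41 (C1qb) to 0.20 (Folr2). Since the Cd163 probe was at background on 10 of 16 arrays, much of its spread there lies near the detection limit.

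The 6 genes were taken because they were called higher by genotype, and Cd163 was the gene called lower. Their opposite positions by genotype follow from that choice and are given as a description only. The mean of the 6, each centred on its mean over all arrays, was 0.25 ± 0.09 (SD, n = 7, from 0.09 to 0.37) in Trim28MommeD9/+ and -0.19 ± 0.19 (SD, n = 9, from -0.52 to 0.10) in Trim28+/+. Trim28+/+ replicates 6 and 9 reached 0.10 and 0.03 on this mean while their Cd163 stayed at 5.18 and 5.46, above every Trim28MommeD9/+ array. Trim28+/+ replicate 1 had a mean of -0.08, below every Trim28MommeD9/+ array, with Cd163 within their range.

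**Figure D4:**
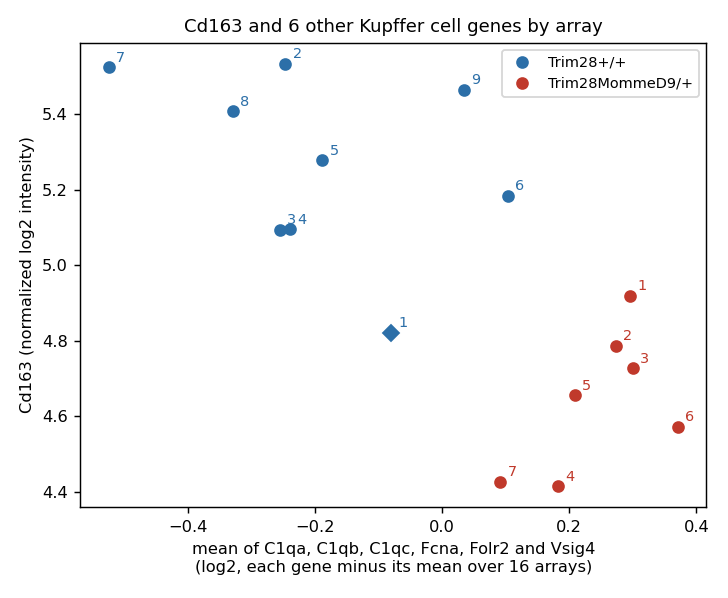
Cd163 (y axis, normalized log2 intensity) against the mean of C1qa, C1qb, C1qc, Fcna, Folr2 and Vsig4 (x axis, log2, each gene minus its mean over 16 arrays), 1 point an array, numbered by replicate, with Trim28+/+ replicate 1 as a diamond. The Trim28MommeD9/+ arrays lie from 0.09 to 0.37 on the x axis and at or below 4.92 on the y axis. Trim28+/+ replicate 1 is the only Trim28+/+ array below 5 on the y axis. The genes of the x axis were those called higher by genotype, so their separation by genotype follows from their choice.

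Other macrophage genes were mixed. Of 20 listed, 14 were tested, and 4 were higher and 1 lower, beside 10.4% and 11.4% of all genes tested. Their median difference was 0.14 (on median scaling over all probes -0.11, beside -0.19 for all genes). Clec4f, a lectin typical of Kupffer cells in the mouse, rose by 0.27 (SE 0.07, limma adjusted p = 0.0127), from 8.65 ± 0.15 (SD, n = 9) to 8.92 ± 0.14 (SD, n = 7), with 3 of 7 Trim28MommeD9/+ arrays above every Trim28+/+ array. Tyrobp, a signaling adaptor of myeloid receptors, rose by 0.34 (limma adjusted p = 0.0164), and Lyz2, a lysozyme with a near-identical copy in Lyz1 that its probe may share, by 0.37 (limma adjusted p = 0.0374). Axl, a receptor for apoptotic cells, was the other gene called higher. Slc11a1, a metal transporter of the phagosome, fell by 0.26 (limma adjusted p = 0.0234). With the background sets as a block, which sets the Trim28MommeD9/+ arrays against Trim28+/+ replicate 1, Slc11a1 differed by 0.04 and Lyz2 by 0.03. In that fit Clec4f differed by 0.42 and Tyrobp by 0.64. Adgre1, which encodes a surface antigen of mouse macrophages, differed by -0.30 (limma adjusted p = 0.0721), and Timd4, a receptor for phosphatidylserine on resident Kupffer cells, by -0.13 (limma adjusted p = 0.38), with detection on 1 of 7 and 5 of 9 arrays. Of these 3 Kupffer cell markers, only Clec4f passed the test. Cd68 had no annotated probe.

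Of 16 genes for CSF1 ligands and factors of the macrophage lineage, 7 were tested. Among these, 0 were higher and 1 was lower, beside 10.4% and 11.4% of all genes tested. That gene was Irf8, a transcription factor of myeloid cells, which was detected on 2 of 7 Trim28MommeD9/+ and 8 of 9 Trim28+/+ arrays and differed by -0.34 (limma adjusted p = 0.0232), having met the minimum of 3 arrays only through Trim28+/+, where it was higher. With the background sets as a block Irf8 differed by -0.03. Csf1, Il34 and Spi1, which encodes PU.1, did not pass the filter on dim probes.

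The classical and lectin complement pathways had 10 tested genes other than the C1q chains and Fcna, with a median of 0.077. Of these, 4 were higher and 0 lower, beside 10.4% and 11.4% of all genes tested. The 4 were C2 (0.28, limma adjusted p = 0.00468), C4b (0.21, limma adjusted p = 0.0103), the inhibitor Serping1 (0.12, limma adjusted p = 0.0424) and Masp2, a protease of the lectin pathway (0.16, limma adjusted p = 0.0445), all of which hepatocytes also make. Of 9 tested genes that clear hemoglobin and heme, among which Cd163 acts as a receptor, 1 was higher and 1 lower, beside the same shares of all genes. Blvra, which reduces biliverdin, rose by 0.29 (limma adjusted p = 0.00221). Lrp1, a receptor for heme bound to hemopexin, fell by 0.40 (limma adjusted p = 0.031). Heme oxygenase Hmox1 differed by 0.43 without passing the test (limma adjusted p = 0.0556).

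Markers of other liver and blood cells are given beside these values, and their part in them was not tested. Their counts stand beside 10.4% of all genes tested called higher and 11.4% lower. The summed linear intensity of the 8 Kupffer cell genes ranged from 2704 to 3209 in Trim28MommeD9/+ and from 1775 to 2697 in Trim28+/+. Most of it came from Fcna and Vsig4, whose values were known when the lists were chosen. Of 5 tested monocyte and neutrophil markers (of 15 listed), 0 passed the test, and their sum ranged from 518 to 655 and from 506 to 621. Of 2 tested lymphocyte and NK markers (of 14), 0 passed, with sums from 53.0 to 75.2 and from 50.9 to 146, and Cd3e, Cd4, Cd8a, Ms4a1 and Nkg7 were not detected on enough arrays to be tested. Of 13 tested sinusoidal endothelial markers, Pecam1 (0.29) was higher and Ptprb (-0.75) lower, and the sums were 5601 to 6114 and 5715 to 6610. Of 9 tested stellate cell markers, Col3a1 was lower and 0 were higher, with sums from 5010 to 5811 and from 5331 to 6128. Col3a1 was detected on 0 of 7 Trim28MommeD9/+ and 8 of 9 Trim28+/+ arrays. It thus met the minimum of 3 arrays only through Trim28+/+, where it was higher. Of 13 tested hepatocyte markers, 1 was higher and 6 were lower, beside 10.4% and 11.4% of all genes tested. The sums of these markers ranged from 103010 to 113186 and from 106538 to 115569. Among the 6, Hnf4a differed by -0.55 (limma adjusted p = 0.00406) and Serpina1c by -0.60 (limma adjusted p = 0.00439). Both were detected on all 7 Trim28MommeD9/+ and all 9 Trim28+/+ arrays. The Alb probe was near the detection limit in Trim28MommeD9/+ (detected on 5 of 7 arrays). Tdo2 was detected on 2 of 7 Trim28MommeD9/+ and 9 of 9 Trim28+/+ arrays. It met the minimum of 3 arrays only through Trim28+/+, where it was higher. Of 3 tested erythroid markers 0 passed, and 0 of 6 listed cholangiocyte markers could be tested. The median differences were 0.038, -0.012, -0.0047, -0.0033, -0.062 and 0.0051 for the monocyte, lymphocyte, endothelial, stellate, hepatocyte and erythroid lists.

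**Figure D5:**
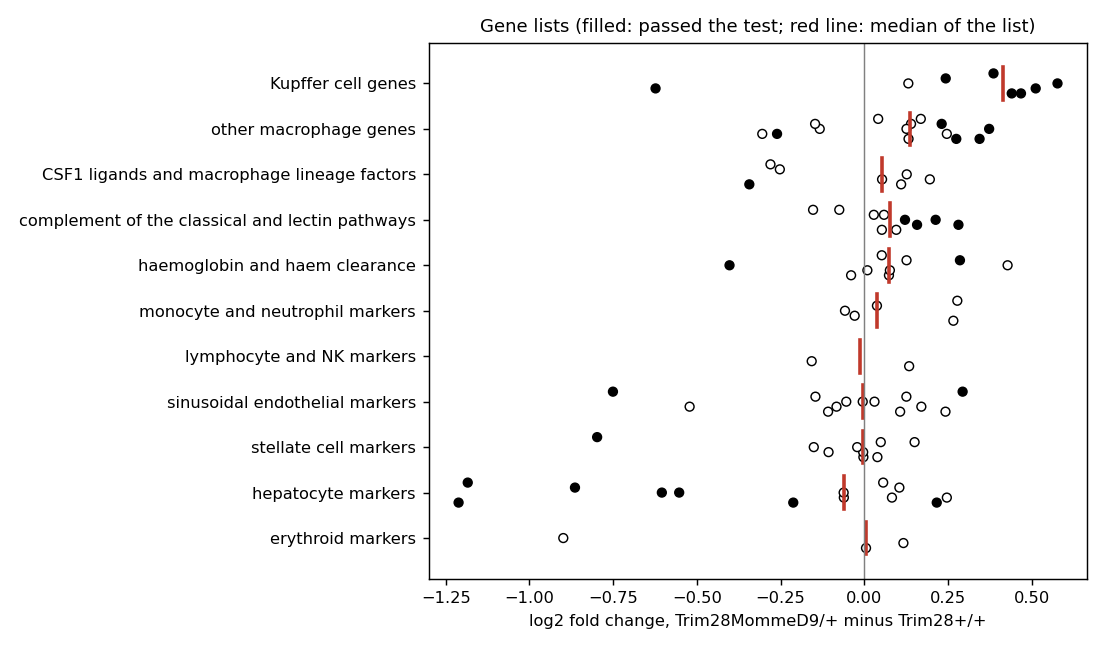
Log2 fold change (x axis, Trim28MommeD9/+ minus Trim28+/+) of each tested gene of the Kupffer cell list and of 10 other gene lists (rows); filled points passed the test, open points did not, and the red line is the median of the list. On genotype alone, the Kupffer cell list has a median of 0.41 with Cd163 alone far below 0, and the medians of the other lists lie between -0.06 and 0.14. With the background sets as a block (not drawn) the Kupffer cell median was 0.23, and that of the lymphocyte markers was 0.32.

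The genes whose centred profile over the 16 arrays was most like the mean of the 8 genes were H2-Ab1 (r 0.88), Lyz1 (0.87), BC028528 (0.85), Lyz2 (0.83), Casp1 (0.83), Dexi (0.83), Jpt2 (0.82), Cd74 (0.82), Reep3 (0.82), Enpp4 (0.81), Atp2a3 (0.81) and Gng10 (0.80). H2-Ab1 and Cd74 encode a class II chain and the invariant chain of antigen presentation. Cd74 ranged from 7.98 to 9.43 in Trim28+/+ and from 8.31 to 9.05 in Trim28MommeD9/+, and H2-Ab1 from 7.78 to 8.95 and from 7.99 to 8.81, and neither passed the test by genotype (limma adjusted p = 0.844 and 0.409). Of the 12, Lyz2 and Casp1 were higher in Trim28MommeD9/+ and BC028528 was lower, beside 10.4% and 11.4% of all genes tested. The other 9 did not pass the test. Over the same 16 arrays, the centred mean of the 6 higher genes had r of 0.86 with the mean of the other macrophage genes (0.91 within Trim28MommeD9/+ and 0.85 within Trim28+/+) and 0.80 with that of the monocyte and neutrophil markers (0.97 and 0.77). It was 0.83 with the erythroid markers (0.33 and 0.90), 0.67 with the 2 lymphocyte markers (0.49 and 0.70) and 0.074 with the endothelial markers. With the hepatocyte markers r was -0.53, but 0.14 within Trim28MommeD9/+ and -0.65 within Trim28+/+, and with the other complement genes it was -0.50 (0.20 and -0.76). With the constant that the authors subtracted it was -0.43, and again the sign differed, 0.55 within Trim28MommeD9/+ and -0.53 within Trim28+/+. These differences between genotypes were not tested. The list means were not scaled by gene, so a gene of large spread weighs most, such as Slc4a1 (SD 1.31 in Trim28+/+) among the erythroid markers. Gene by gene, the median r to the mean of the 6 was 0.46 for endothelial markers (8 of 13 positive). It was 0.58 for monocyte and neutrophil markers (3 of 5 positive), 0.56 for other macrophage genes (13 of 14 positive) and 0.039 over all genes.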

How the data were processed

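Total liver RNA was hybridized by the authors to Illumina MouseRef-8 v2.0 BeadChips. The authors deposited an intensity for each probe and array, neither background-subtracted nor normalized, and a detection p-value beside it. A second deposited table holds intensity values from which the authors subtracted a constant on each array before scaling. It is on a linear scale with negative values kept. It served as an alternative, with every value under 16 set to 16 before log2. The labels name GenomeStudio without a version.

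The table holds 25697 probes, of which 23978 had a gene symbol, 23962 of them updated through the Entrez identifier. Neqc of limma 3.58.1 (R 4.3.3, offset 16) corrected background, normalized by quantiles and took log2. Probes detected (p-value under 0.01) on 3 or more of the 16 arrays were kept (10291), and each gene was read from its brightest probe on average (7302 genes). Genotypes were compared over these genes with limma's moderated test with an intensity trend, with Benjamini-Hochberg adjustment and a threshold of 0.05. The mean intensity was 205 to 270 on Trim28MommeD9/+ arrays and 273 to 344 on Trim28+/+ arrays, with 9186 to 10262 probes detected on an array, and the number of arrays limits the precision. Correlations were computed in Python 3.11.15 with pandas 2.3.3 and SciPy 1.17.1. The model was tested on simulated data with known changes. Promoter windows came from RefSeq (GRCm38.p6).

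The genes and the 11 other lists were chosen with earlier results of these data known, including the values of Fcna and Vsig4. Named genes were the 10 Kupffer cell genes, up to 4 tested genes of each list with the smallest p, the 12 most like the mean profile, and Trim28. Adgre1, Timd4 and Axl were named besides, Axl after its values were seen. Alternatives were the normalization, the background correction, the authors' values, the filter on dim probes, the intensity trend, blocks for replicate number, presumptive technical pairs and background sets, and leaving out each array. Averaging the pairs before a correlation was added after seeing the data.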

Additional observations from a re-analysis of the deposited data

Results flagged for a closer look

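Each of 57 genes was examined in both genotypes (114 groups of arrays) for an array that stood apart from the others of its genotype by Dixon's test, which by chance does so in about 1 of 20 groups. In 5 groups an array stood apart, and 0 of them were of Kupffer cell genes. Tgfb1, a cytokine that shapes resident macrophages, was lowest on Trim28+/+ replicate 7 at 5.21, with the other 8 arrays from 5.54 to 5.86, on the array that also had the lowest C1qb, C1qc, Fcna and Folr2. Lrp1, the receptor for hemopexin, was lowest on Trim28MommeD9/+ replicate 4 at 5.56, with the others from 5.70 to 5.80. The probe used for Alb, which encodes albumin, was lowest on Trim28+/+ replicate 1 at 5.03. The other Trim28+/+ arrays lay from 6.56 to 6.97 and the Trim28MommeD9/+ arrays from 5.00 to 5.67. Trim28+/+ replicate 1, the single Trim28+/+ array of the low background set, thus lay in the Trim28MommeD9/+ range for Alb as it did for Cd163. This Alb probe was detected on 5 of 7 Trim28MommeD9/+ arrays. The lowest detected signal of a Trim28MommeD9/+ array lay from 5.14 to 5.26, so Alb was near the detection limit there. BC028528 was lowest on Trim28MommeD9/+ replicate 7 at 4.68, with the others from 5.13 to 5.28. Jpt2 was highest on Trim28MommeD9/+ replicate 6 at 6.65, with the others from 6.37 to 6.48.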

How the results depend on the processing

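Of the 8 genes, 6 were called higher and 1 lower, and leaving out each array in turn gave 5 to 6 higher and 1 to 1 lower, beside 6.87% to 13.4% and 9.09% to 13.3% of all genes. Over these fits 127 differences kept their direction and side of the threshold and 1, C1qb without Trim28MommeD9/+ replicate 6, missed it. Median scaling over all probes gave 1 higher (Folr2), with C1qa at -0.020, and the background sets as a block gave 0 higher and 0 lower. Among probes detected on all arrays 5 of 5 genes were higher and 0 lower, since Cd163, Folr2 and Marco left the test. With the authors' values 4 were higher and 1 lower, and C1qa (limma adjusted p = 0.132) and C1qb (0.0565) missed the threshold. Marco was -0.046 in that fit, where values under 16 were set to 16. Its means before this step were 14.2 in Trim28MommeD9/+ and 12.7 in Trim28+/+. The second Cd163 probe, not detected on any array, gave 0.0055. Same-numbered arrays of both genotypes had correlations from -0.394 to 0.479, and 2 of 7 correlated best with their own number, so the numbers were not taken as pairs. With the replicate block 4 genes were higher and 1 lower, and C1qa (limma adjusted p = 0.104) and C1qb (0.0553) missed the threshold. The median r over 28 pairs of genes was 0.21, and 0.14 (without Trim28MommeD9/+ replicate 7) to 0.25 without single arrays, 0.41 with median scaling over all probes and 0.39 with the authors' values. The r of Cd163 to the other genes was -0.14, and -0.27 to 0.049 without single arrays, with 0.049 without Trim28+/+ replicate 7, and 0.60 within Trim28MommeD9/+. The causes of these changes were not tested. Signal over background limits Cd163, Marco and Cd5l, whose probes were detected on 6, 3 and 0 of 16 arrays.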
